A study of Saccharomyces cerevisiae with 100 samples.

Results

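Single nucleotide variants (SNVs) that lay close together in the genome of the same yeast strain were examined among suppressors of the sensitivity of rad53Δ sml1Δ cells to methyl methanesulfonate (MMS), a DNA alkylating agent. An SNV of a suppressor was counted as clustered when its allele frequency was at least 0.40 and another such SNV of the same suppressor lay within 10000 bp on the same chromosome. Position and allele frequency therefore chose the members, and their number and spacing are given as a description with no test. By this rule 531 of 3123 SNVs were clustered, which is 17% (526 distinct SNVs of 2904), and they formed 246 clusters in 79 of 95 suppressors. The other 2592 SNVs are called unclustered.

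The 95 suppressors and the control strain YJT75 shared one genotype, MATa with sml1Δ::URA3 and rad53Δ::LEU2, in a W303 derivative. Deletions of RAD53 and SML1 were thus carried by the control as well. Each suppressor was a survivor from MMS plates, and each was sequenced as a single genomic DNA library, with 1 library of YJT75 in common. No strain had a replicate library.

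Rad53 is the effector kinase of the DNA damage and replication checkpoint in budding yeast, and loss of Sml1, an inhibitor of ribonucleotide reductase, keeps cells alive without it. MMS methylates bases, and the resulting lesions can be copied past by translesion polymerases or be cut out by base excision repair. Mutations that arise together in a stretch of DNA are known from yeast and tumors as clustered mutations, which may come from single-stranded DNA, where bases damaged on the same strand give changes of the same kind, or from an error-prone polymerase that makes several errors in a single synthesis tract.

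In the control, 517 of the 531 clustered SNVs were listed at an allele frequency of 0, beside 3009 of all 3123 SNVs of the suppressors. The highest YJT75 value of a clustered SNV was 0.0923, and the authors' filter on the control had removed SNVs with higher values. All but 10 were found in a single suppressor, and 238 of the 246 clusters held only such private SNVs. The shared SNVs included a change in GUD1, a guanine deaminase, that entered a cluster in SUP80, SUP85 and SUP121 because another SNV lay near it.

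Most clusters were pairs. There were 216 clusters of 2 SNVs, 24 of 3, 3 of 4 and 3 of 5, and the median distance between the first and the last SNV of a cluster was 3289.5 bp, with a highest value of 17261 bp. The 30 clusters of 3 or more SNVs held 99 SNVs in 27 suppressors. By location, 43 clusters lay within 1 gene, 24 held only intergenic SNVs, and 179 joined different genes or genes and intergenic DNA.

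Suppressors differed in how many of their SNVs were clustered. The number of clustered SNVs per suppressor was lowest at 0, had a median of 6 and was highest at 17, with a mean of 5.59 ± 4.08 (SD, n = 95), beside 32.9 ± 11.2 SNVs in all. The highest number, 17 SNVs in 8 clusters, was reached in SUP17 (of 54 SNVs) and SUP62 (of 46 SNVs), and the highest share in SUP27, in which 14 of 34 SNVs (41.2%) were clustered. SUP17 carried clusters on chromosomes VII, VIII, X, XI, XII and XV, so its clustered SNVs were spread over the genome and not confined to a single region. The 15 suppressors with 10 or more clustered SNVs had 34 to 57 SNVs (median 44), and the 16 without a cluster had 9 to 43 (median 20). Strains with more SNVs have more pairs that can fall close together, and the ranges of these sets of strains overlapped.

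**Figure D1:**
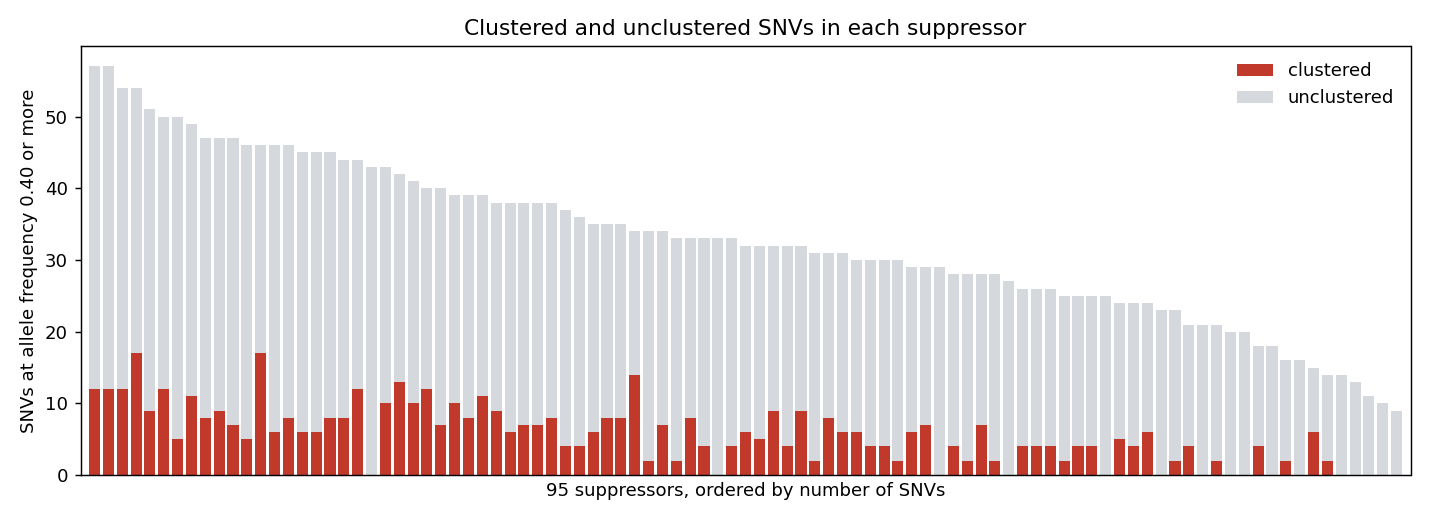
Number of SNVs at allele frequency 0.40 or more in each of the 95 suppressors, ordered by total, with clustered SNVs in red below and unclustered SNVs in gray above. Clustered SNVs ranged from 0 to 17 per suppressor and were absent from 16.

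The number of close pairs was set beside the number that the same collection of SNVs gives when the partners come from different suppressors. For the 2864 private SNVs, all pairs within a suppressor (48711) and all pairs between different suppressors (4051105) were sorted by distance. The between-suppressor pairs keep the distribution of SNVs along the chromosomes, and their rate was multiplied by the number of within-suppressor pairs. Within suppressors 317 pairs lay within 10000 bp, against 87.6 at the between-suppressor rate, a ratio of 3.62. Of the 95 suppressors, 75 had more pairs and 19 fewer than their own number of SNVs gave at that rate. In most suppressors that number was smaller than a single pair, so the split largely restates which strains held any close pair of private SNVs.

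The ratio was highest at the shortest distances. At 1 to 10 bp there were 31 pairs within suppressors, against 0.0962 at the between-suppressor rate (8 pairs between different suppressors in all). At 11 to 100 bp there were 9 against 1.13, a ratio of 7.96, and from there to 1 kb 42 against 8.74, a ratio of 4.80. Pairs 1 to 2 kb apart had a ratio of 5.02 and pairs 2 to 5 kb apart a ratio of 3.88. Between 5 and 10 kb the ratio was 2.05 (87 pairs against 42.4). Just beyond the limit of the rule, at 10 to 20 kb, it was 1.24, and from 20 to 50 kb it was 1.00 (244 pairs against 243). The limit of 10000 bp therefore took in pairs from a range of distances over which the ratio declined, and 87.6 of the 317 pairs is the number that the between-suppressor rate alone gave.

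**Figure D2:**
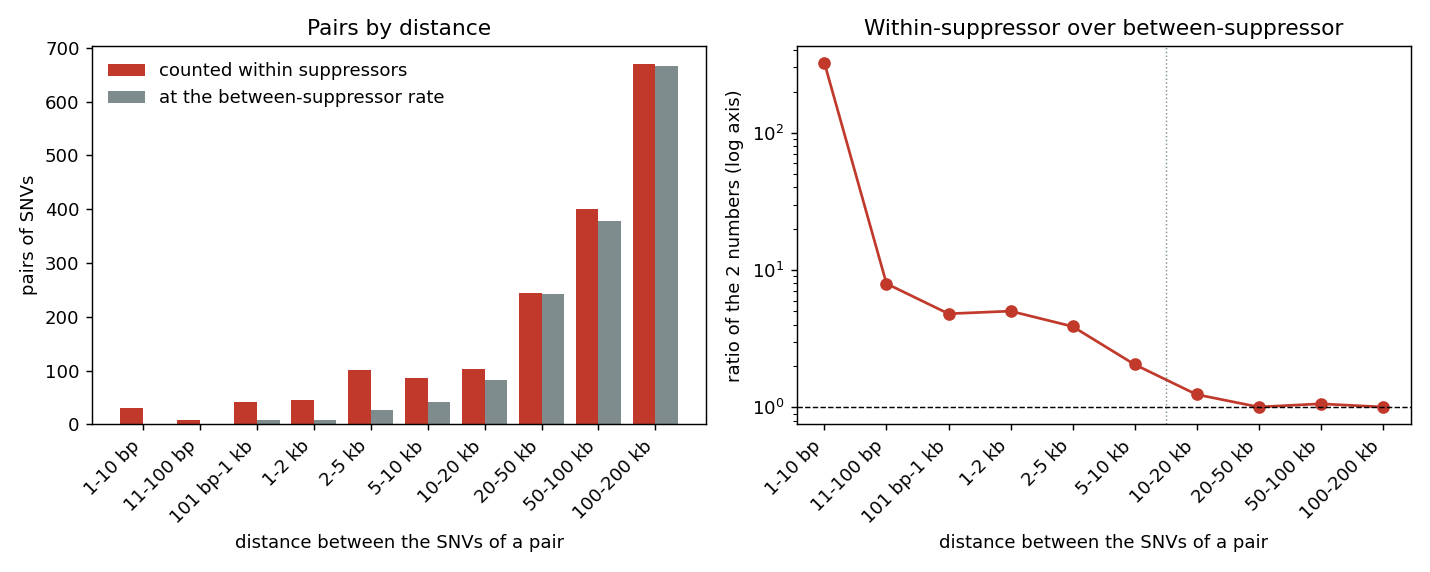
Left, pairs of private SNVs by distance class, counted within suppressors (red) and at the between-suppressor rate (gray). Right, the ratio of these numbers on a log axis, with a dashed line at 1 and a dotted line at 10 kb, which runs from 322 at 1 to 10 bp to 1.24 at 10 to 20 kb and 1.00 at 20 to 50 kb.

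The ratio within 10000 bp was 3.87 without chromosome XII, 3.97 for SNVs at allele frequency 0.7 or more, 3.60 for SNVs listed at 0 in YJT75 and 3.495 without genes listed as having near-identical copies. That list did not take in all tRNA genes. The ratio was 3.75 in the 49 suppressors that carry the GUD1 change and 3.53 in the other 46, so both sets of strains held close pairs above the between-suppressor number.

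Near the limits of the rule, the widest gaps that counted were 9924 bp, between T27623A in PFA3, a palmitoyltransferase, and C37547A outside genes on chromosome XIV of SUP114, and 9914 bp, between C104410G in CHC1 (clathrin heavy chain) and C114324G in KEX1 (a Golgi carboxypeptidase) of SUP30. Positions follow the sacCer2 build of the deposited table and are counted from 1 at the left end of each chromosome, with the reference base first on the reference strand. The smallest gap that did not count was 10012 bp, between SDH1 and SDH3, subunits of succinate dehydrogenase, in SUP40, followed by 10055 bp between VIP1 and CTR3 in SUP91. In allele frequency the lowest member was A307439G in CSF1 at 0.4167 in SUP18. Below the limit, 10 SNVs had values from 0.30 up to 0.40, and of these 1 lay within 10000 bp of a counted SNV, A88006G in YCL019W, a Ty reading frame, at 0.3039 in SUP22. The deposited table holds only SNVs that reached 0.40 in a suppressor, so an SNV private to a strain could not appear below the limit. These counts therefore do not show how many SNVs the limit left out. Values under 0.30 were not examined.

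Neighbouring SNVs, consecutive SNVs on a chromosome of the same suppressor, formed 285 pairs within 10000 bp. Of these 30 were at most 10 bp apart, 38 at most 100 bp and 74 at most 1 kb, and the other 211 lay farther apart. The 30 closest pairs came from 23 suppressors. In 20 of them both SNVs lay in the same gene, 3 of these being tRNA genes, and in 10 both were intergenic. Both SNVs reached an allele frequency of 0.7 in 26 of the 30.

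Adjacent or nearly adjacent changes were of many kinds. In LYS12, which encodes homoisocitrate dehydrogenase of lysine synthesis, SUP13 carried C187278A and C187279A on chromosome IX, both missense and both at an allele frequency of 1. In NAN1, a component of the small ribosomal subunit processome, SUP47 carried C310219T and C310220A on chromosome XVI at 0.6143 and 0.6103. The pair of SUP13 was of the same class on the same strand, and the pair of SUP47 shared the strand but not the class. The chromosome V cluster of SUP6 held 3 intergenic SNVs in a row, A443409G, A443410T and T443412G, at 0.9167, 0.873 and 0.8702. On chromosome XV, SUP76 carried A544479C, A544480G and G544485T outside genes at 0.9884, 0.9884 and 0.9944, with A552851T in the intron of PFY1 (profilin) as the remaining SNV of the cluster. Effects were deposited for each SNV separately, so for changes within the same codon the joint amino acid change may be another than those listed.

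The rule also took in a position with different bases. In SUP23 the asparagine tRNA gene tN(GUU)G on chromosome VII was listed with both G731210A, at 0.4356, and G731210T, at 0.5644, although the methods of the study state that multiallelic loci were removed. The other tRNA genes with a close pair were tF(GAA)M in SUP111 (G352304C and C352306A, at 1 and 0.9897) and tE(UUC)G2 in SUP26 (G401570C and A401575G, both at 1). In all, 21 of 100 SNVs in tRNA genes were clustered (21%), beside 531 of all 3123 SNVs (17%).

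The largest clusters differed in span and content. In SUP130, 5 SNVs lay in a short stretch of HXT1, a low-affinity glucose transporter, at C292140T, T292146A, A292152G, A292263G and A292269G on chromosome VIII, with allele frequencies of 0.9545 to 0.9857. All 5 were synonymous. HXT1 belongs to a family of hexose transporter genes with near-identical copies, among which short reads can be misplaced, and whether that bears on these SNVs was not tested. In SUP59, 5 SNVs were spread over 9993 bp of chromosome V, and 4 of them were C-to-T changes with the C on the reference strand or its complement. These were C545490T, G548810A in DMC1 (the meiotic recombinase), C550813T and C553305T, and the fifth was A555483G. In SUP94, 5 SNVs spanned 12135 bp of chromosome X and fell in 4 genes. They were G284808A in ARP4, an actin-related subunit of chromatin remodelers, G288797C in SCP160, an RNA-binding protein, G292225T and G292985T in PRY3, and A296943T in NET1, the nucleolar anchor of Cdc14. Of these, 4 had G as reference base and 4 were missense.

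The 3 clusters of 4 SNVs lay on chromosomes XII, XIV and XV. In SUP39, T168902A outside genes, T172628C in PPR1, the activator of uracil synthesis genes, G175932A in BRE2, a subunit of the H3K4 methylase complex, and A177824T in MEU1 of methionine salvage spanned 8922 bp of chromosome XII. All were near 0.5, at 0.4861, 0.4952, 0.4987 and 0.5068. In SUP8, C501105G, C502619T in SUN4, A511889T in NOP2, an rRNA methyltransferase, and A515306T spanned 14201 bp of chromosome XIV, all at an allele frequency of 1. The cluster of SUP76 on chromosome XV is the one with PFY1 given above.

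The SNVs of a cluster were present at much the same allele frequency. The minimum of 0.40 applied to clustered and unclustered SNVs alike, and distance alone separated them. Both SNVs were on the same side of 0.7 in 282 of 285 clustered neighbouring pairs (98.9%) and in 1613 of 1676 neighbouring pairs farther apart (96.2%). The median difference between the allele frequencies of a pair was 0.0034 for clustered pairs and 0.0053 for the others. Averaged within suppressors over private SNVs, the gap was 0.0139 ± 0.0177 for clustered and 0.0328 ± 0.0447 for unclustered neighbouring pairs (SD, n = 76 suppressors). It was smaller for clustered pairs in 58 of the 76 suppressors (difference -0.0189, SE 0.00492, two-sided sign-flip permutation test over suppressors, p adjusted over 11 tests = 0.00011). With SNVs at 0.7 or more only, the difference was -0.000733 (adjusted p = 0.807, permutation test, n = 68), which did not pass. The depth per SNV is unknown.

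Intermediate values were mostly those of chromosome XII. There 81 of 83 clustered SNVs and 284 of 326 unclustered SNVs were under 0.7, with medians of 0.492 and 0.4905, whereas off chromosome XII 3.79% of 448 clustered and 4.99% of 2266 unclustered SNVs were. In all 46 clustered neighbouring pairs on chromosome XII the SNVs were on the same side of 0.7, and so they were in 258 of 270 pairs farther apart on it. Off chromosome XII, 7 pairs had both SNVs under 0.7, in SUP23, SUP47, SUP89 and SUP124. The 3 pairs across 0.7 were in SUP23, SUP89 and SUP124 as well, and the widest gap, 0.3525, was on chromosome II of SUP124.

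**Figure D3:**
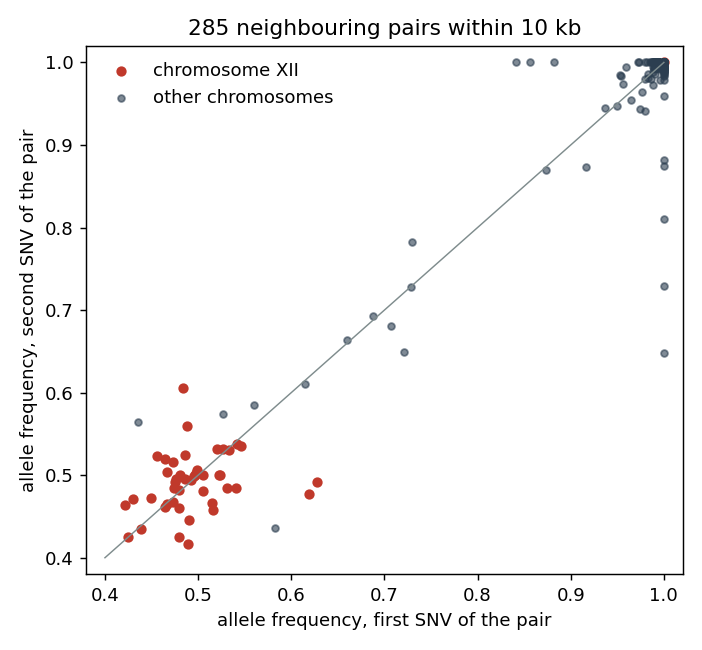
Allele frequencies of the first and second SNV, in chromosome order, of the 285 neighbouring pairs within 10 kb, with a gray line at equality. Most of the 46 pairs of chromosome XII (red) lie around 0.5 and most other pairs (dark) near 1. The chromosome XII pair of SUP65 lies at 1. In 282 pairs both SNVs are on the same side of 0.7.

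The substitution spectrum of clustered SNVs had fewer T-to-C changes. Classes are given by the pyrimidine of the reference base pair, so that T-to-C includes A-to-G on the other strand. Averaged within suppressors, T-to-C changes were 18.5% ± 17.5 of clustered and 28.0% ± 9.28 of unclustered SNVs (SD, n = 77 suppressors with both kinds). The share was lower among clustered SNVs in 54 suppressors and higher in 21, with a mean difference of -9.48 percentage points (95% interval -13.5 to -5.42, permutation test, adjusted p = 0.00011). With a cluster distance of 20000 bp, which adds the SNVs with a neighbour at 10 to 20 kb, the difference was -4.67 points and did not pass (adjusted p = 0.219, permutation test, n = 83). Pooled over suppressors, 19.4% of 521 clustered and 28.3% of 2343 unclustered private SNVs were T-to-C.

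Other classes did not pass the test. The C-to-T share averaged 20.7% ± 19.5 among clustered and 16.4% ± 7.87 among unclustered SNVs, a difference of 4.26 points (SE 2.28, permutation test, adjusted p = 0.237). When suppressors were weighted by their numbers of clustered and unclustered SNVs, in place of equally, that difference was 6.87 points and passed (adjusted p = 0.0154, permutation test). C-to-A averaged 23.4% and 19.8% (difference 3.57, SE 2.98), C-to-G 17.9% and 14.6% (3.25, SE 2.69) and T-to-A 15.2% and 16.9% (-1.75, SE 2.21). T-to-G, the rarest class, averaged 4.31% among clustered and 4.16% among unclustered SNVs. For C-to-A the 95% interval of the difference, -2.26 to 9.40 points, leaves room for a change about as large as that of T-to-C.

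By distance, the T-to-C share was low in every class within 10000 bp and higher in every class beyond it. It was 17.5% of 57 SNVs whose nearest neighbour lay within 10 bp, 18.8% of 16 at 11 to 100 bp, 17.4% of 69 from there to 1 kb and 20.1% of 379 at 1 to 10 kb. At 10 to 20 kb it was 32.4% of 148, at 20 to 100 kb 28.6% of 744, and farther away 27.6% of 1451. Without the SNVs that lay within 100 bp of another, an alternative chosen after the data were seen, the T-to-C difference was -7.82 points (adjusted p = 0.00627, permutation test, n = 74), so that the lower share was not confined to the closest pairs. T-to-G changes were 7 of the 57 SNVs with a neighbour within 10 bp (12.3%), and 13 of 379 (3.43%) at 1 to 10 kb.

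**Figure D4:**
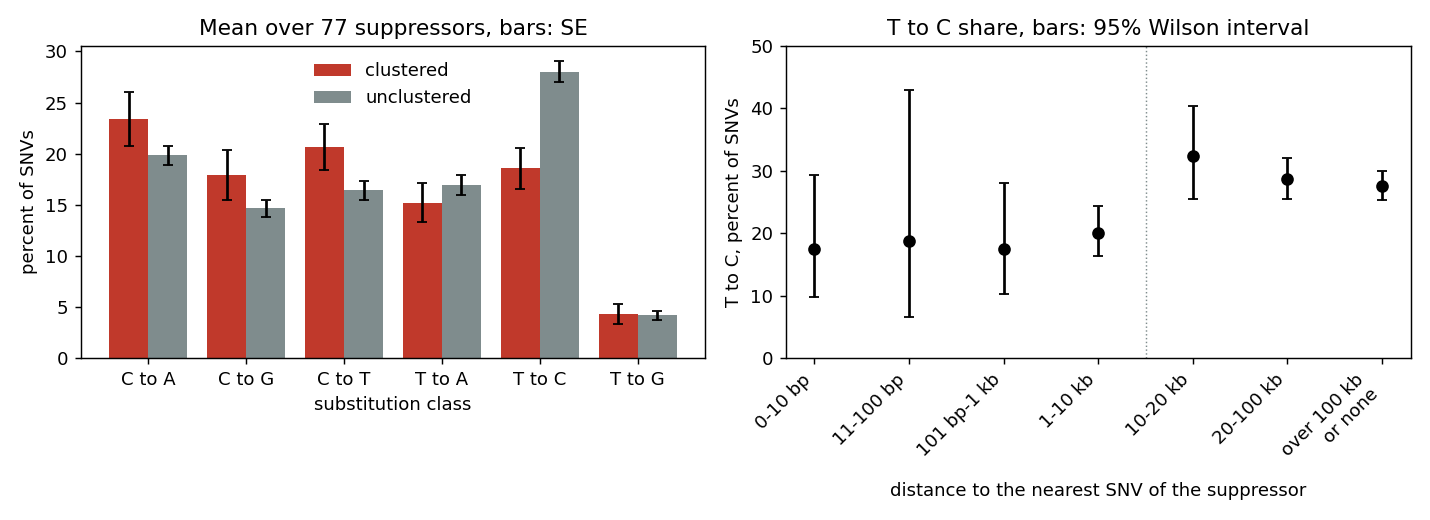
Left, mean share of each substitution class among clustered (red) and unclustered (gray) private SNVs over 77 suppressors, with standard errors; T-to-C averages 18.5% and 28.0%. Right, percent of SNVs that are T-to-C by distance to the nearest SNV of the suppressor, with 95% Wilson intervals for counting error, which lies at 17.4 to 20.1% within 10 kb (dotted line) and at 27.6 to 32.4% beyond.

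Strand coordination was measured as the share of neighbouring pairs with both reference pyrimidines on the same strand. It averaged 49.4% ± 32.0 for clustered and 54.4% ± 15.3 for unclustered pairs (SD, n = 76 suppressors), a difference of -4.99 points (SE 3.94, 95% interval -12.7 to 2.73, permutation test, adjusted p = 0.372). Pooled, 143 of 277 clustered pairs and 770 of 1445 unclustered pairs were same-strand. The same-class share averaged 25.0% ± 30.2 for clustered and 19.8% ± 12.3 for unclustered pairs, a difference of 5.19 points (SE 3.67, 95% interval -2.01 to 12.4, permutation test, adjusted p = 0.372). Neither measure passed the test, and the intervals include differences of over 10 points.

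Pairs with both SNVs at C:G were a larger part of clustered than of unclustered pairs, 109 of 285 (38.2%) and 438 of 1676 (26.1%). Of these, 67 of 109 clustered (61.5%) and 219 of 438 unclustered pairs (50.0%) were same-strand. Within suppressors the difference for C:G pairs was 5.60 points (permutation test, unadjusted p = 0.412, n = 52), in a subset chosen after the data were seen. Among pairs with both SNVs at T:A, 27 of 45 clustered (60.0%) and 224 of 384 unclustered pairs (58.3%) were same-strand. Over whole clusters, 89 of the 246 had every SNV at C:G, 33 had every SNV at T:A and the rest had both. Of the clusters of 3 or more SNVs, 4 of 30 were of a single class, and of the pairs 44 of 216 were.

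No difference in effects on genes passed the test between clustered and unclustered SNVs. Nonsilent changes, that is missense, nonsense, start-lost and stop-lost, averaged 72.4% ± 25.8 of clustered and 73.9% ± 11.6 of unclustered coding SNVs (SD, n = 76, difference -1.52, 95% interval -7.98 to 4.95, permutation test, adjusted p = 0.791). Intergenic SNVs averaged 26.4% ± 21.3 of clustered and 26.7% ± 9.64 of unclustered SNVs (n = 77, difference -0.31, 95% interval -5.45 to 4.84, permutation test, adjusted p = 0.906). Over all suppressors 264 of 1582 nonsilent SNVs were clustered, which is 16.7%, beside 100 of 574 synonymous SNVs (17.4%) and 141 of 832 intergenic SNVs (16.9%).

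Of 53 nonsense SNVs, 15 were clustered (28.3%), each in another gene. They lay in SIR4, a silencing factor, GCN20, a regulator of the Gcn2 kinase, STU2, a microtubule polymerase, HIF1, a histone chaperone, YNG1, a subunit of the NuA3 acetyltransferase, SCS2, an endoplasmic reticulum membrane protein, SEC72 of the translocon, MRN1, an RNA-binding protein, PPR1, BPH1, SPO74, LCL3, ERC1, CFF1 and RSN1. The nonsense change of SIR4, G917976T in SUP13 on chromosome IV, was at an allele frequency of 1 with its nearest SNV 3349 bp away. That of GCN20, G163439T in SUP73 on chromosome VI, was also at 1, with a missense change, C163435A, 4 bp away in the same gene. STU2 is essential for growth, and its nonsense change, G236791C in SUP100, was at 0.5591 on chromosome XII, 539 bp from the missense change T236252G at 0.4877. HIF1 in SUP83 and SEC72 in SUP61 were on chromosome XII as well, at 0.5309 and 0.5464, whereas PPR1 in SUP65, also on that chromosome, was at 1. The share among nonsense SNVs stands beside the 16.7% of all nonsilent SNVs as a description, since SNVs that lie in the same strain and gene are not independent.

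Of the 285 clustered neighbouring pairs, 57 lay within the same gene (20.0%). The distance limit sets this share in large part, since few genes are long enough to hold a pair farther apart. In all 53 genes were hit more than once in a suppressor by clustered SNVs, none of them in more than 1 suppressor, and 30 carried at least 2 nonsilent SNVs. For these 30 genes the count of nonsilent SNVs exceeds the count of strains in which the gene was changed.

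Genes with several nonsilent changes came from many functions, and the closest pairs are named here. LOC1, a ribosome assembly factor, carried A149213C and G149216A in SUP21, and UBP12, a ubiquitin protease, carried C66880G and C66883T in SUP82. In NTG1, an N-glycosylase of base excision repair, SUP117 carried G127877C and A127881C at an allele frequency of 1. RDL2, a mitochondrial sulfurtransferase, carried T850484A and T850488A in SUP121, at 1 and 0.875. YRB30, which binds the GTPase Ran, carried C192428A and C192433A in SUP20, and the small reading frame YDR524C-A carried T1489877A and A1489883G in SUP61. SSA2, an Hsp70 chaperone, BUD6, a regulator of formins, and MDL1, a mitochondrial ABC transporter, all on chromosome XII, carried pairs 11, 13 and 15 bp apart in SUP15, SUP1 and SUP17, at allele frequencies of 0.4246 to 0.5333. PIB2, a regulator of TORC1, carried G451364A and G451388A in SUP86, RIB2 of riboflavin synthesis G204225A and T204282C in SUP17, and TEA1, an activator of Ty1, G954347A and C954492G in SUP4. YBL113C of the subtelomeric Y' elements, which have near-identical copies, carried 3 SNVs in SUP27 at 0.7292 to 1.

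The pathways that the study followed contained some of these genes. A list of translesion synthesis and repair genes, which is not among those pathways, was counted beside them. For the nonsilent SNVs of mRNA decay genes 5 of 15 were clustered (33.3%), for silencing genes 2 of 11 (18.2%), for Rpd3L and Rph1 0 of 6, for genes that the study deleted 13 of 47 (27.7%) and for translesion synthesis and repair 2 of 15 (13.3%). Of all nonsilent SNVs 16.7% were clustered, and over the lists together 17 of 76 (22.4%), with some genes in more than a single list. The study chose the deleted genes on these samples, so that their counts are not independent.

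In mRNA decay, 4 of the 5 clustered SNVs were pairs inside the same gene. NMD2, which encodes Upf2 of nonsense-mediated decay, carried T255151A and G255533T in SUP17, 382 bp apart. XRN1, the cytoplasmic 5'-to-3' exonuclease, carried T176908C and G177944C in SUP79, 1036 bp apart. The fifth was A403558C in DCP2, the decapping enzyme, in SUP6. All 5 were missense at an allele frequency of 1. Counted by strain, these clusters were thus 3 strains with a changed decay gene and not 5.

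The clustered silencing changes were the nonsense change of SIR4 in SUP13 and G1020756T in SIR3 in SUP112, at 0.6055 on chromosome XII, in a cluster with SNVs in SEC39 and between genes. Of the other deleted genes, MPT5, a Puf family RNA-binding protein, carried C168341A and G168668A in SUP4, and LCL3, a nuclease-like protein, carried its nonsense change G350244A with the synonymous C349816T in SUP3. STB6 in SUP14, BMH2, a 14-3-3 protein, in SUP15, DAS1, an F-box protein, in SUP57, RAI1, the partner of the Rat1 exonuclease, in SUP59 and ARP8 of the INO80 complex in SUP65 had a missense change with the nearest SNV 1590 to 7489 bp away. NTG1 was the only gene of the repair list with a clustered nonsilent SNV.

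Clusters were found on all 16 chromosomes. The share of SNVs that were clustered was highest on chromosome XV, 67 of 260 (25.8%, 95% Wilson interval 20.8 to 31.4), in 32 clusters of 28 suppressors, followed by chromosome XII with 83 of 409 (20.3%, 16.7 to 24.5) and chromosome X with 40 of 199 (20.1%, 15.1 to 26.2). It was lowest on chromosome XI, 14 of 137 (10.2%, 6.19 to 16.4), and chromosome VI, 7 of 66 (10.6%, 5.23 to 20.3). Of the 16 intervals, that of chromosome XV lay wholly above the 17% of all SNVs and that of chromosome XI wholly below it. The intervals cover counting error only and treat SNVs of a cluster as independent, which they are not, and these were the highest and the lowest of 16 chromosomes. The number of clustered SNVs on a chromosome depends on its length and its density of SNVs, which the rule uses. No between-suppressor number was computed for single chromosomes, so the shares are a description.

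**Figure D5:**
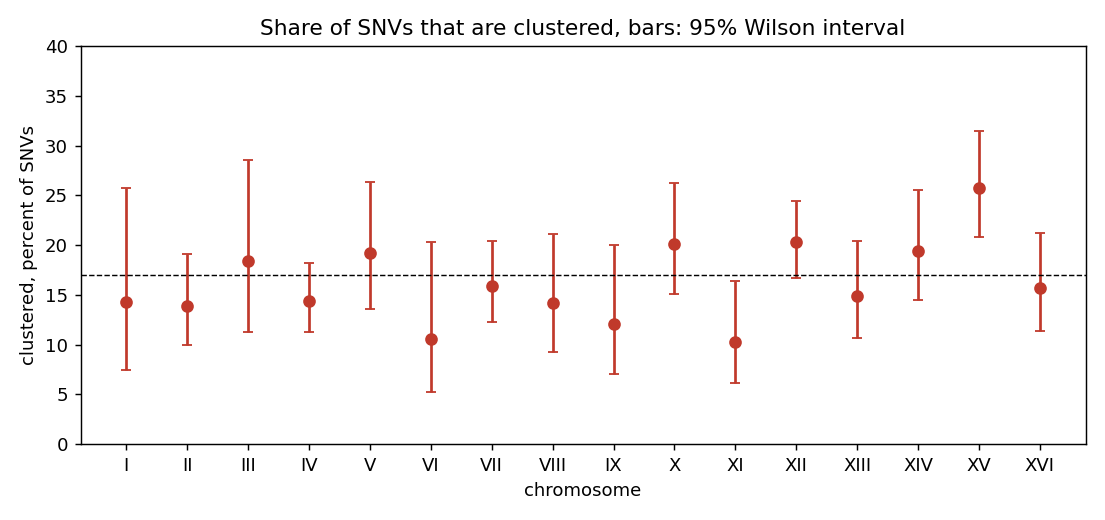
Percent of SNVs that were clustered on each chromosome, with 95% Wilson intervals for counting error and a dashed line at the 17% of all SNVs. Chromosome XV is highest at 25.8% and chromosome XI lowest at 10.2%.

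Some places held clusters in several strains. Of the 246 clusters 40 (16.3%) overlapped a cluster of another suppressor, and no cluster overlapped those of more than 3 others. This count is a description with no background beside it, and it includes clusters that meet at a shared SNV, in GUD1, CHC1 and near BFA1. Around ILV5, a mitochondrial enzyme of branched-chain amino acid synthesis on chromosome XII, clusters of 4 suppressors, made of different SNVs, overlapped in a chain. SUP82 carried C838278T and G839119A in ILV5, and SUP71 carried A838753G there, while the clusters of SUP18 and SUP36 covered or adjoined it. FKS1, the glucan synthase, was hit in the overlapping clusters of SUP73 and SUP61 on the same chromosome. CHC1 on chromosome VII was hit in clusters of SUP30, SUP86 and SUP104. Those of SUP30 and SUP86 each overlapped that of SUP104 but not each other. SUP86 and SUP104 met at the same synonymous SNV, A104034G, found in 49 suppressors. A cluster on chromosome X (an intergenic SNV and BFA1, 529571 to 535639) was identical in SUP118 and SUP119, whose SNVs there were shared by both strains.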

How the data were processed

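Genomic DNA of each strain was sequenced as 1 library. Reads were mapped to the sacCer2 build by the authors with Novoalign 2.07.14, who removed duplicates from the longer reads with Picard 1.81, counted bases with deepSNV at a base quality of at least 30, called SNVs jointly and annotated them with snpEff. Each deposited value is an allele frequency, the fraction of reads at the position that show the alternative base, and 10 in the table stands for 1. Depth per SNV is unknown, so no interval is given for an allele frequency. The deposited table holds SNVs that reached an allele frequency of 0.40 in a suppressor and stayed at a low frequency in the control. Short reads can be misplaced among genes with near-identical copies, and the genes listed as such held 11 of the clustered SNVs. That list did not take in all tRNA genes, which held 21 clustered SNVs. Whether misplaced reads bear on the SNVs in tRNA genes was not tested.

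Symbols were taken by systematic name from an R64 gene table, which matched 292 of 322 genes with a clustered SNV. Differences between clustered and unclustered SNVs were averaged within suppressors over SNVs found in 1 suppressor, and tested with a two-sided sign-flip permutation test over suppressors (100000 draws, Benjamini-Hochberg adjustment over 11 tests) in Python 3.11.15 with numpy 2.4.6, pandas 2.3.3 and scipy 1.17.1. The smallest p that these draws can give is 1e-05. The test was checked on simulated data for the T-to-C share only, with equal numbers of SNVs and planted pairs in every suppressor. Its use for the other measures was not checked in this way. Suppressors served as the unit, since SNVs of a strain share their source. Genes with several clustered SNVs in a suppressor were named, up to 15 nonsilent by number and gap, with those of clusters of at least 4 SNVs, of pairs at most 100 bp apart, with clustered nonsense SNVs, or with clustered nonsilent SNVs in the pathway lists. Genes outside these sets were named after their values were seen. Members and lists were chosen with earlier results of these data known. Alternatives were other distances and allele frequency limits, leaving out chromosome XII, shared SNVs, SNVs seen in YJT75 or repeated genes, and another weighting.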

Additional observations from a re-analysis of the deposited data

How the results depend on the processing

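Of 155 values under other settings, 139 were counted as unchanged. Differences had to keep their direction and their side of the threshold. The number of clustered SNVs had to lie within a factor of 1.5 of the main number. The share on chromosome XV had to lie within its main interval, 20.8 to 31.4%, and leaving out chromosome XII cannot change it. With a cluster distance of 1000 bp, 142 of all 3123 SNVs were clustered, and on chromosome XV 8.08% of SNVs. A shorter distance lowers both numbers by definition. The T-to-C difference was -4.67 points at 20000 bp (adjusted p = 0.219) and passed in the other settings, up to -12.3 points. The allele frequency gap was -0.000733 with SNVs at 0.7 or more and passed in the other settings. The C-to-T difference passed, at 6.87 points, with suppressors weighted by their numbers of clustered and unclustered SNVs. Some of the results that never passed changed sign. The intergenic difference became 0.579 at 5000 bp, 1.01 without chromosome XII, 0.0821 with shared SNVs in each carrier, 0.343 with each distinct SNV once, 0.0969 with SNVs at 0 in YJT75, and 0.884 without SNVs within 100 bp of another. The T-to-G difference became -0.0297 at 20000 bp, -0.0958, -0.144 and -1.16 for distinct SNVs, SNVs at 0 in YJT75 and without close SNVs. The same-strand difference was 5.60 for C:G pairs. The causes of these changes were not tested.

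The clusters come from 1 library a strain with no depth per SNV, so a false SNV beside a true one cannot be told apart from a pair. With a median of 6 clustered SNVs a suppressor, shares within a suppressor vary widely, and the intervals of the strand and class differences are about 15 points wide. Between-suppressor pairs keep the distribution of SNVs over the collection but not differences in that distribution between strains.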
